A study of Canis lupus familiaris with 6 samples.

Results

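The genes described here are 8 transcription factors tied to the identity of kidney epithelium, PAX2, PAX8, GATA3, ELF3, ELF5, GRHL2, TFCP2L1 and EHF, in cultured canine kidney cells. They were found by name, as the probe sets whose single gene symbol in the platform annotation is one of the 8. This gave 12 of 42924 probe sets, and 8 of the 15115 genes that the array names. PAX2, PAX8, GATA3, ELF3 and ELF5 had 1 probe set each, EHF and TFCP2L1 had 2, and GRHL2 had 3.

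Transcription factors of this kind bind DNA and set which genes an epithelial cell can use. PAX2 and PAX8 are paired-box factors that start the renal lineage in the mouse embryo, and GATA3 is a zinc finger factor of the nephric duct and the collecting duct. ELF3, ELF5 and EHF form the epithelium-specific branch of the ETS family. GRHL2 is a Grainyhead factor that maintains epithelial junction genes, and TFCP2L1, from the same wider family, acts in the collecting duct of the mouse.

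The cells were MDCKII, an established epithelial line derived from dog kidney (Madin-Darby), and their RNA was read on Affymetrix canine arrays. In the 3D group (3 arrays) the cells grew as cysts on thinly spread Matrigel, an extract of basement membrane, with 100 µl per 60 mm dish and 2% Matrigel in the medium. In the 2D group (3 arrays) they grew without Matrigel as a confluent monolayer on plastic. All RNA was taken 36 h after plating, and the labels call the replicates biological without saying whether they came from separate cultures, so that p-values measure only the spread between these arrays. The aim stated for the design was to find genes raised in 3D as candidates for a role in lumen formation.

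The deposited log2 values lay on different scales. The median over all probe sets was 7.06 to 7.08 on the 4 arrays of replicates 2 and 3, and 5.26 in 3D and 5.42 in 2D on the replicate 1 arrays. Tests were therefore made on replicates 2 and 3, with n = 2 arrays per group, and the replicate 1 difference is given beside them, untested and on its own scale. The lower quartiles of the 4 tested arrays were 5.64 to 5.67, and the table carries no detection calls. Poly-A spike-in controls averaged 9.09 and 8.35 on the 3D arrays, against 8.23 and 8.27 on the 2D arrays, with 3D replicate 2 the highest. Of 4 actin and GAPDH control pairs, the 3′ minus 5′ difference was larger on both 3D arrays than on both 2D arrays in 2. Of these, the actin pair had 0.10 and 0.32 in 3D and -0.07 and -0.02 in 2D. On the replicate 1 arrays the other actin pair differed by 2.90 in 3D and 2.17 in 2D, against 0.57 to 0.89 on the tested arrays. Both GAPDH pairs were also larger there, while the first actin pair was not, at -0.08 in 3D and -0.29 in 2D. The part of these controls in the results below was not tested.

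EHF rose in 3D, on both of its probe sets, and it was the 1 gene of the 8 with a probe set past the threshold. EHF, also called ESE-3, is an ETS factor found mainly in epithelia. Its first probe set, of the _at type, had log2 values of 10.85 and 10.75 on the 3D arrays, against 9.99 and 9.97 on the 2D arrays. The lower 3D array lay well above the higher 2D array, and the arrays of each group lay close together. The 3D level of EHF was 1.77-fold that in 2D (log2 fold change 0.82, SE 0.101, 95% interval 0.57 to 1.07, n = 2 arrays per group, limma adjusted p = 0.0140).

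The second EHF probe set, of the _s_at type, whose probes can match several related transcripts, had 10.22 and 9.97 in 3D, against 9.26 and 9.33 in 2D. Again the groups did not overlap, and the estimate was 0.80 on the log2 scale (SE 0.122, 95% interval 0.50 to 1.10, limma adjusted p = 0.0224). The probe set names share a root, so the pair may read the same transcript and is no independent repeat. In cells measured as a whole culture, more transcript per cell and more cells with the transcript cannot be told apart.

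In replicate 1 the first EHF probe set read 9.05 in 3D and 7.99 in 2D, a difference of 1.06. The second read 7.98 in 3D and 7.21 in 2D, a difference of 0.77. All pairs of arrays thus had the higher EHF value in 3D. Without 3D replicate 2, the array with the brightest spike-ins, the log2 fold changes were 0.77 and 0.675.

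Leaving out any 1 of the 4 tested arrays kept the log2 fold change of the first EHF probe set at 0.77 to 0.87. That of the second stayed at 0.675 to 0.925. The EHF call did not stand in these fits, and neither did any other on the array. A fit with 1 array in a group cannot weigh a single call. With the replicate number as a block, which also left no other call on the array, the limma adjusted p was 0.153 and 0.161. In a fit of all 6 arrays after quantile normalization it was 0.780 and 1.0, at log2 fold changes of 0.92 and 0.82.

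**Figure D1:**
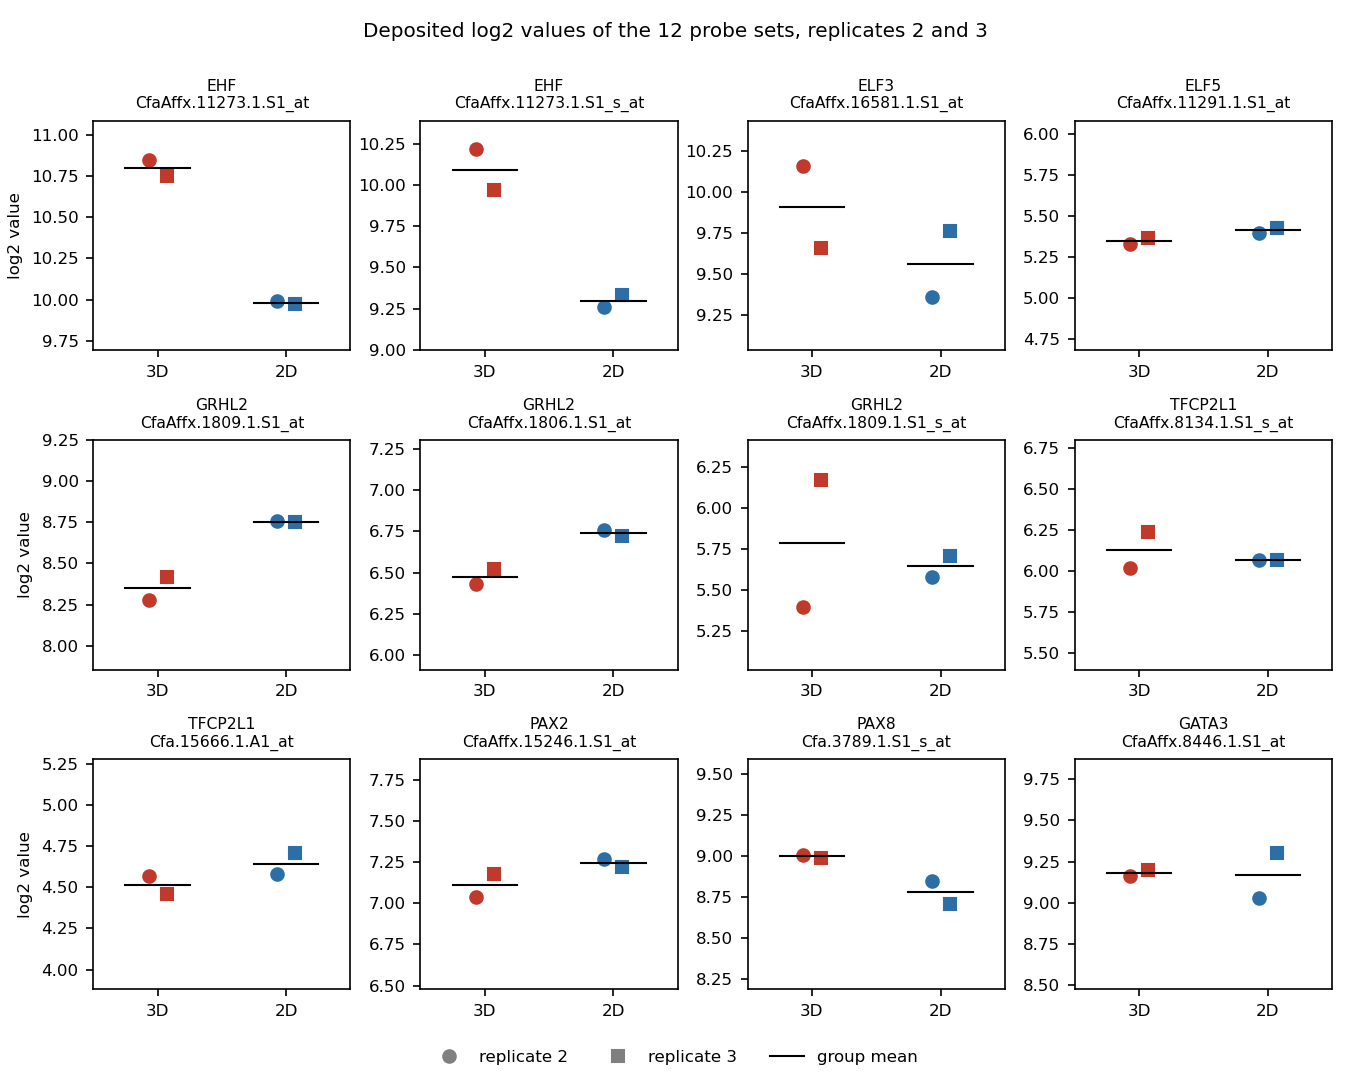
Log2 values of the 12 probe sets on the arrays of replicates 2 and 3, 3D left and 2D right in each panel, with the group mean as a bar; every panel spans the same log2 range. The 3D arrays of both EHF probe sets lie clear above the 2D arrays, while ELF3, GATA3, the third GRHL2 probe set and the first TFCP2L1 probe set have groups that overlap.

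The relatives of EHF in the epithelium-specific ETS branch did not pass. ELF3, or ESE-1, which is induced in epithelia under inflammation, had 10.16 and 9.66 in 3D, against 9.36 and 9.76 in 2D. Its 3D replicate 3 lay below its 2D replicate 3, so the groups overlapped. Its log2 fold change was 0.35 (SE 0.208, 95% interval -0.16 to 0.86, limma adjusted p = 0.384), and the interval takes in the size of the EHF difference. In replicate 1 ELF3 read 8.53 in 3D and 8.56 in 2D, a difference of -0.03.

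ELF5, or ESE-2, known from the milk-secreting mammary epithelium and the mouse trophoblast, had 5.33 and 5.37 in 3D, against 5.40 and 5.43 in 2D. Every one of these values was below the arrays' lower quartiles. The log2 fold change was -0.065 (SE 0.0974, 95% interval -0.30 to 0.17, limma adjusted p = 0.765), and the replicate 1 difference was -0.50. The EHF difference itself was not tested against those of ELF3 or ELF5.

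GRHL2 was lower in 3D on the first 2 of its 3 probe sets, on replicates 2 and 3, and not separated on the third. On the first probe set, of the _at type, it had 8.28 and 8.42 in 3D, against 8.76 and 8.75 in 2D. Both 3D arrays were lower than both 2D arrays. The difference was -0.405 on the log2 scale (SE 0.104, 95% interval -0.66 to -0.15), and it did not pass the threshold over all probe sets (limma adjusted p = 0.0785). The interval is not adjusted for the number of probe sets. In replicate 1 this probe set read 6.22 in 3D and 7.04 in 2D, a difference of -0.82.

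The second GRHL2 probe set, also _at but with another root name, had 6.43 and 6.52 in 3D, against 6.76 and 6.72 in 2D. The groups did not overlap, with a log2 fold change of -0.265 (SE 0.10, limma adjusted p = 0.183). Replicate 1 went the other way, at 3.90 in 3D and 1.32 in 2D. The 2D value of 1.32 was far under the 3.52 of that array's lower quartile, where a reading is dim.

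The third GRHL2 probe set, the _s_at set with the root name of the first, had 5.40 and 6.17 in 3D, against 5.58 and 5.71 in 2D. Its 3D arrays lay on either side of the 2D arrays. Its log2 fold change was 0.14, with the widest error of the 12 (SE 0.244, limma adjusted p = 0.804), and -0.245 without 3D replicate 3. In replicate 1 this probe set read 2.07 in 3D and 3.31 in 2D, a difference of -1.24, with both values below their arrays' lower quartiles. Taken as the mean of its probe sets, GRHL2 differed by -0.18 (SE 0.129, limma adjusted p = 0.473).

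TFCP2L1 did not pass on either probe set. In the mouse it acts in the maturing collecting duct and in embryonic stem cells. Its first probe set (_s_at) had 6.02 and 6.24 in 3D, against 6.07 and 6.07 in 2D (log2 fold change 0.06, SE 0.115, 95% interval -0.22 to 0.34, limma adjusted p = 0.825). The second (_at) had 4.57 and 4.46 in 3D, against 4.58 and 4.71 in 2D, all below the arrays' lower quartiles, with a log2 fold change of -0.13 (SE 0.108, limma adjusted p = 0.549). The replicate 1 differences were 0.48 for the first probe set and -1.12 for the second. On replicates 2 and 3 the first probe set's 3D arrays lay on either side of its 2D arrays.

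Of the factors that specify the renal lineage, PAX8, which stays on in adult tubule epithelium and in the thyroid, had 9.01 and 8.99 in 3D, against 8.85 and 8.71 in 2D. Both 3D arrays were higher than both 2D arrays. PAX8 had a log2 fold change of 0.22 (SE 0.105, 95% interval -0.04 to 0.48, limma adjusted p = 0.276). In replicate 1 PAX8 read 6.59 in 3D and 6.04 in 2D, a difference of 0.55, so that all 3 pairs had the higher value in 3D, although the call was not made.

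PAX2, needed for the nephric duct and the early nephron, had 7.04 and 7.18 in 3D, against 7.27 and 7.22 in 2D. The groups did not overlap, by a margin of a few hundredths. For PAX2 the log2 fold change was -0.135 (SE 0.105, 95% interval -0.39 to 0.12, limma adjusted p = 0.520). Replicate 1 had the opposite sign, at 4.82 in 3D and 3.47 in 2D, and the 2D value was just under the array's lower quartile, 3.52.

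GATA3 is known for guiding the nephric duct, and its loss of function in people affects the parathyroid, hearing and the kidney. It had 9.16 and 9.20 in 3D, against 9.03 and 9.30 in 2D. The 3D arrays lay between the 2D arrays. The log2 fold change was 0.015 (SE 0.124, 95% interval -0.29 to 0.32, limma adjusted p = 0.968), and the estimate was 0.00 after each array was centred on its median. In replicate 1 it read 6.68 in 3D and 8.0 in 2D, a difference of -1.32, which is larger than the interval on the other arrays allows on their scale.

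**Figure D2:**
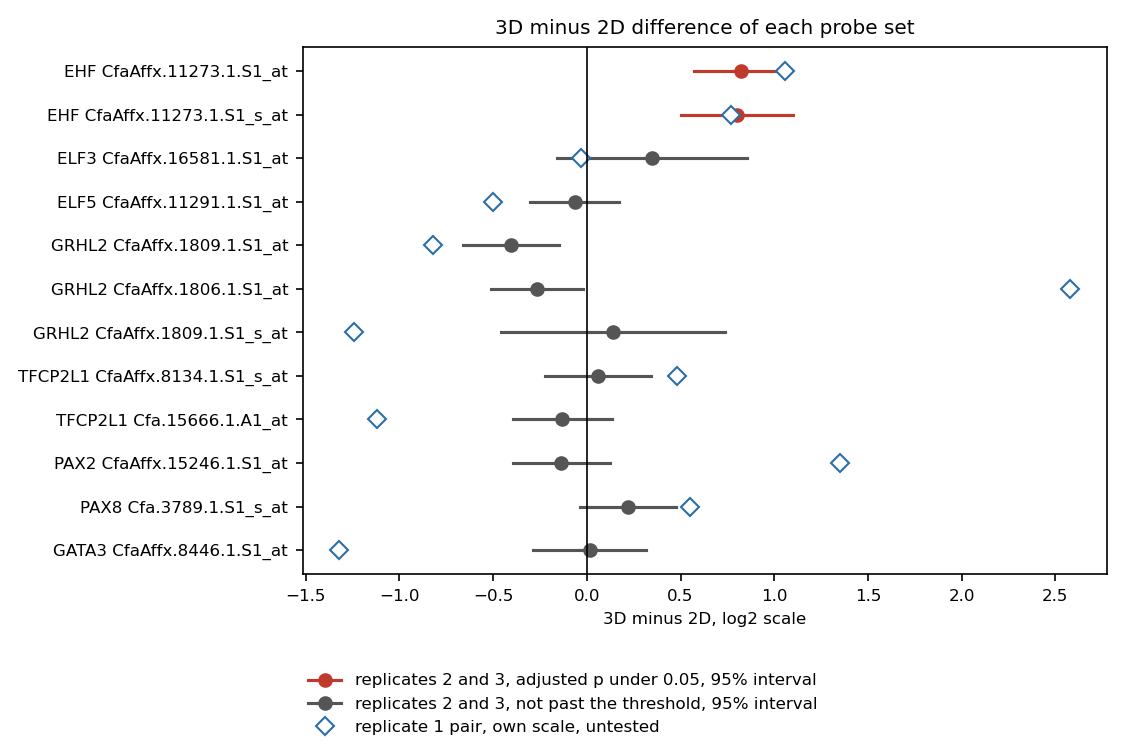
Difference of 3D minus 2D on the log2 scale for each probe set (x axis), with the 95% interval of the limma estimate on replicates 2 and 3 (filled circles, n = 2 arrays per group) and the replicate 1 pair as open diamonds. The EHF circles stand at 0.82 and 0.80 and their diamonds at 1.06 and 0.77, inside the intervals as for ELF3, whereas the diamonds of the other 9 probe sets, on the other scale, lie outside theirs.

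Across the 8 factors, 2 of 12 probe sets were called, both higher in 3D and both of EHF, and 0 were lower. Of all probe sets 6.61% were called in either direction, 3.65% higher and 2.96% lower. Counted by gene, with the probe set of the highest mean standing for the gene, 1 of 8 was called, against 7.28% of all genes (4.17% higher and 3.12% lower). A single gene lies behind both calls, so the count says nothing of the factors as a list. The limma adjusted p of the 10 other probe sets ran from 0.0785 to 0.968. An unadjusted limma p under 0.05 was found for 4 of the 12, the EHF pair and the first 2 GRHL2 probe sets. Such a p was common, at 10072 of all 42924 probe sets. The median log2 fold change of the 12 probe sets was 0.0375, against -0.005 for all probe sets.

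Absence of overlap between 2 and 2 arrays was common. It was found for 8 of the 12 probe sets, 3 higher and 5 lower in 3D, and for 51.8% of all probe sets. In replicate 1, 7 of the 12 had the same sign as on the other arrays and 5 the opposite sign. The share over all probe sets was not counted, so these counts have no background. On both replicate 1 arrays, ELF5, the third GRHL2 and the first TFCP2L1 probe sets read below the lower quartiles, 3.38 in 3D and 3.52 in 2D. The median replicate 1 difference was 0.225 for the 12 probe sets, against -0.14 for all.

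Ranks within each array take away the difference in scale, as a description chosen after the scales were seen. They do not make the replicate 1 arrays like the others. The second GRHL2 probe set ranked at 3.96 in 2D replicate 1, against 44.5 and 43.8 in 2D replicates 2 and 3. Replicates 1 and 2 correlated at 0.871 in 3D and 0.869 in 2D, against 0.994 and 0.997 for replicates 2 and 3. A probe set's rank is given here as its percentile among all probe sets of that array. The first EHF probe set stood at 91.0, 92.2 and 91.6 in 3D replicates 1, 2 and 3, against 82.8, 86.3 and 86.1 in the 2D replicates. The second stood at 83.6, 88.0 and 86.3 in 3D, against 74.8, 80.0 and 80.4 in 2D. On both, every 3D array ranked EHF above every 2D array.

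The first GRHL2 probe set stood at 64.2, 68.1 and 70.2 in 3D, against 72.8, 74.6 and 74.0 in 2D, so that every 3D array ranked it below every 2D array. These were the 3 of 12 probe sets without overlap in rank, 2 higher and 1 lower, against 13.7% of all probe sets (6.91% higher and 6.82% lower). PAX8 came near, at 68.9, 76.7 and 77.0 in 3D, against 59.6, 75.6 and 73.6 in 2D, where its 3D replicate 1 lay below 2 of the 2D arrays. For GATA3 the order changed with the replicate, at 70.0, 78.3 and 79.3 in 3D, against 82.9, 77.6 and 80.1 in 2D.

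**Figure D3:**
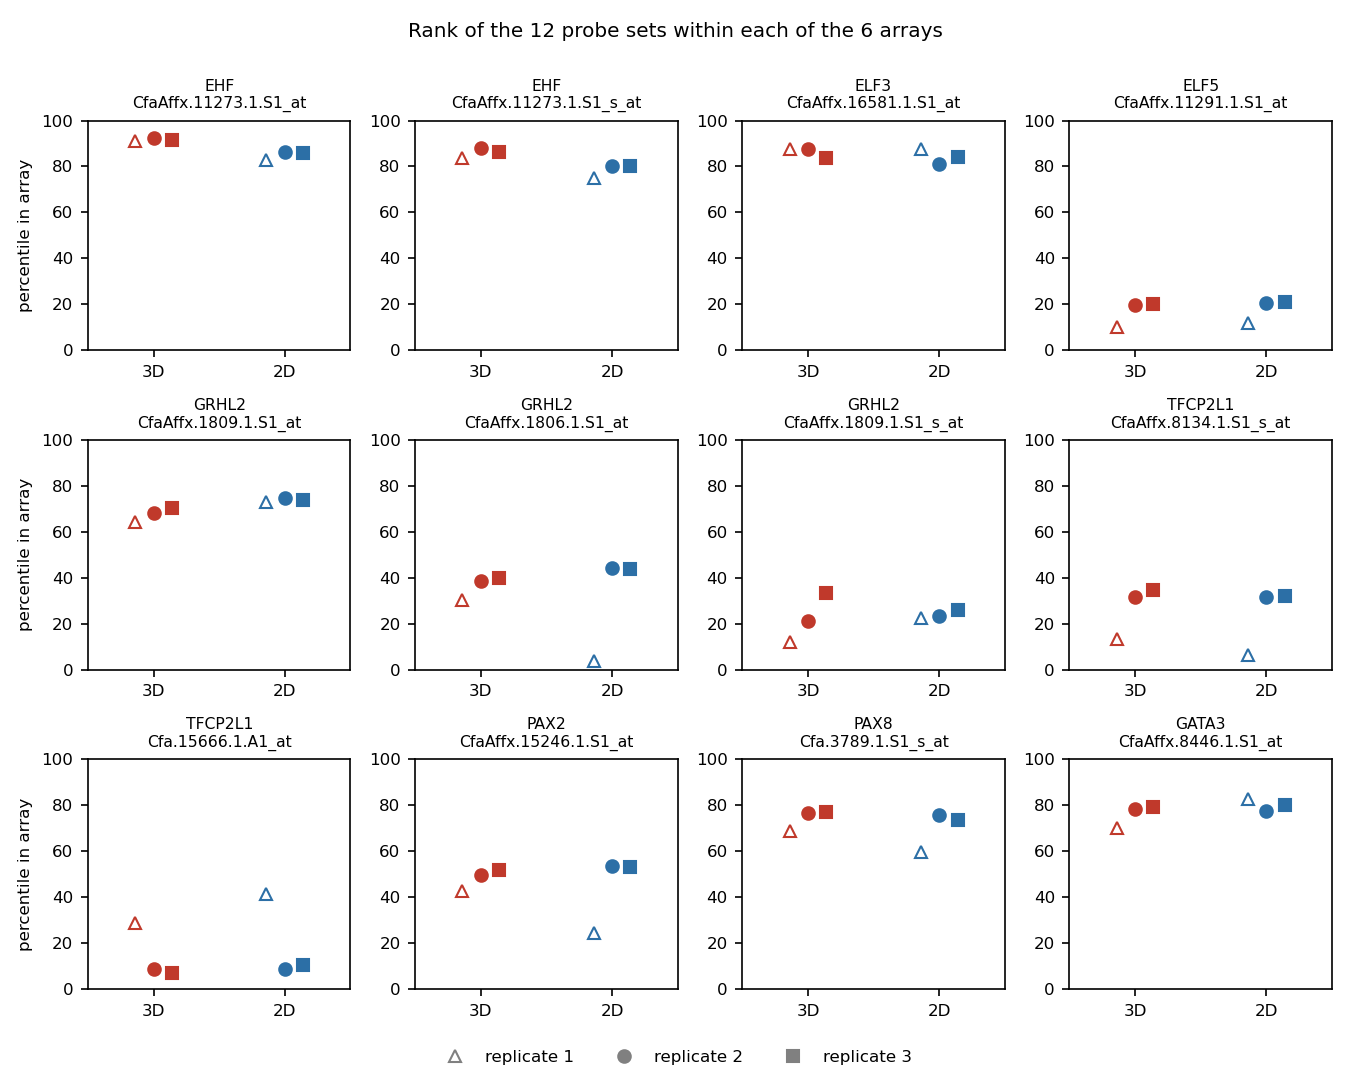
Percentile of each of the 12 probe sets among all probe sets of the same array (y axis), for the 3 arrays of 3D (left) and the 3 of 2D (right), with replicate 1 as open triangles. EHF lies higher on every 3D array, from 91.0 to 92.2 against 82.8 to 86.3 on its first probe set, and the first GRHL2 probe set lies lower, from 64.2 to 70.2 against 72.8 to 74.6.

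The genes with the profile nearest to EHF were found by the Euclidean distance of centred log2 values over the 4 tested arrays, among 14542 named genes. For the first EHF probe set they were INVS (distance 0.00866), DDAH2 (0.0218) and NIT1 (0.0296). For the second they were WDR19 (0.0400), CCDC56 (0.0539) and NENF (0.0572). Their log2 fold changes ran from 0.76 for CCDC56 to 0.845 for NENF. Values near those of EHF follow from choosing the genes on the same 4 arrays, and are no separate result. In replicate 1, DDAH2 differed by 1.51 and NIT1 by 1.35, but INVS by 0 and WDR19 by 0.18, so that likeness on 4 arrays did not always carry over to the other pair.

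Among other transcription factors of the renal tubule, 4 of 20 measured genes rose in 3D, 0 fell and 16 stayed short of the threshold, where 4.17% of all genes were called higher and 3.12% lower. The median log2 fold change was 0.08 on this list, against -0.01 for all genes. IRX3, an Iroquois homeobox gene that helps pattern nephron segments in frogs, had 12.57 and 12.56 in 3D, against 11.67 and 11.78 in 2D (log2 fold change 0.84, SE 0.101, limma adjusted p = 0.0136). IRX5, of the same family, had 12.03 and 11.72 in 3D, against 10.93 and 10.92 in 2D (0.95, SE 0.131, limma adjusted p = 0.0175). The other IRX5 probe set did not pass (0.585, limma adjusted p = 0.0564). For both genes the groups lay far apart, and the replicate 1 differences were 0.42 and 0.43.

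TFAP2B, an AP-2 factor of the distal nephron in the mouse, had 8.72 and 8.79 in 3D, against 7.85 and 8.05 in 2D (log2 fold change 0.805, SE 0.114, limma adjusted p = 0.0186, replicate 1 difference 0.51). HOXB7, a homeobox gene active in the mouse ureteric bud, had 10.09 and 9.98 in 3D, against 9.53 and 9.45 in 2D (0.545, SE 0.104, limma adjusted p = 0.0382). HOXB7 had a replicate 1 difference of -0.05, its second probe set did not pass (0.375, limma adjusted p = 0.0974), and its limma adjusted p was 0.0569 under trend and robust priors. None of the 8 genes called on these lists stayed past the threshold with the replicate block, and nor did any other probe set. As for EHF, fits with 1 array left out kept no call and cannot weigh a single one.

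Counts of 0 on the next lists stand against 7.28% of all genes called, a share that leaves few calls to be found in lists of this size. Of 24 measured relatives picked from the PAX, GATA, ETS and Grainyhead families, with EHF and the other factors left out, 0 rose and 0 fell. Their median was -0.0025, with log2 fold changes from -0.285 to 0.37. Of 14 regulators of the epithelial state 0 passed. Among these, KLF5, a zinc finger factor of epithelia, had 12.91 and 12.59 in 3D, against 12.32 and 12.31 in 2D, and ESRP1, a splicing regulator of epithelial cells, had 9.19 and 9.0 in 3D, against 9.51 and 9.44 in 2D. Of 9 transcription factors of epithelial-mesenchymal transition 0 passed. SNAI2, a repressor of E-cadherin, had the lowest estimate of these, with 8.56 and 9.24 in 3D, against 9.82 and 9.55 in 2D (-0.785, limma adjusted p = 0.11). Of 9 factors of nephron progenitors and stroma 0 passed, with a median of -0.085.

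A list compiled as candidate readouts of the 8 factors had 1 of 30 measured members higher and 0 lower, near the 4.17% and 3.12% of all genes, and a median of 0.0675. The member that rose was WFDC2, a secreted protein with whey acidic protein domains, at 14.04 and 13.92 in 3D, against 13.25 and 13.46 in 2D (log2 fold change 0.625, SE 0.119, limma adjusted p = 0.0378, and 0.0517 as the mean of its probe sets). Of the other WFDC2 probe sets 1 passed, at 0.61, and 1 did not, at 0.12. The list's log2 fold changes ran from -0.425 for TGFBR2 to 0.83 for MUC1 (limma adjusted p = 0.0724 and 0.0642, replicate 1 differences -1.13 and -1.04). STMN1 did not pass (0.415, limma adjusted p = 0.0660), but did where the probe sets of a gene were averaged (limma adjusted p = 0.0467). CDH1, which encodes E-cadherin, had 8.80 and 8.83 in 3D, against 8.63 and 8.67 in 2D. It did not pass (0.165, limma adjusted p = 0.38), and its replicate 1 difference was -1.65. CDH16, the kidney-specific cadherin gene, had 9.19 and 9.30 in 3D, against 9.07 and 9.0 in 2D, and did not pass either (0.21, limma adjusted p = 0.29). RET, the receptor gene of the branching ureteric bud, had 6.38 and 6.41 in 3D, against 6.75 and 6.70 in 2D (-0.33, limma adjusted p = 0.11).

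Among markers of kidney epithelium, 3 genes were called, 2 of the proximal tubule and 1 of the loop and distal tubule. The list medians were 0.035 (general), 0.035 (proximal), 0.105 (loop and distal) and 0.0725 (collecting duct), against -0.01 for all genes. The 9 other proximal markers did not pass, with log2 fold changes from -0.385 for MIOX to 0.885 for CUBN. Of 9 general markers 0 passed. Their log2 fold changes ran from -0.535 for KRT7 to 0.365 for OCLN, with replicate 1 differences of -0.50 and -1.05. EPCAM had 13.68 and 13.77 in 3D, against 13.58 and 13.61 in 2D, and KRT18 had 13.94 and 13.71 in 3D, against 13.83 and 14.01 in 2D. Of 12 collecting duct markers 0 passed, among them the water channel gene AQP2 at 6.53 and 6.72 in 3D, against 6.80 and 6.75 in 2D. Set against 4.17% of all genes called higher, 2 of 11 proximal tubule markers rose, GGT1 at 4.07-fold and FBP1, a gluconeogenic enzyme, at 2.60-fold. Of 8 markers of the loop and distal tubule 1 rose, EGF at 2.05-fold, while the other EGF probe set did not pass (0.50, limma adjusted p = 0.0992, replicate 1 difference -0.14). On the probe sets that stand for these 3 genes, the limma adjusted p ran from 0.00858 to 0.0194.

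Of 15 markers of blood, endothelial, stromal and podocyte cells 0 passed, with a median of 0.05, and 3 lay below the arrays' lower quartiles on all 4 tested arrays. Over the 11 lists, 8 of 152 measured genes were called, all of them higher in 3D (9 higher and 1 lower, TFCP2, where the probe sets of a gene were averaged), which is 5.26% against 7.28% of all genes. Counted in either direction, the share was no higher than the background. By direction, 5.26% were higher against 4.17% of all genes, and 0 were lower against 3.12%. Neither difference was tested.

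**Figure D4:**
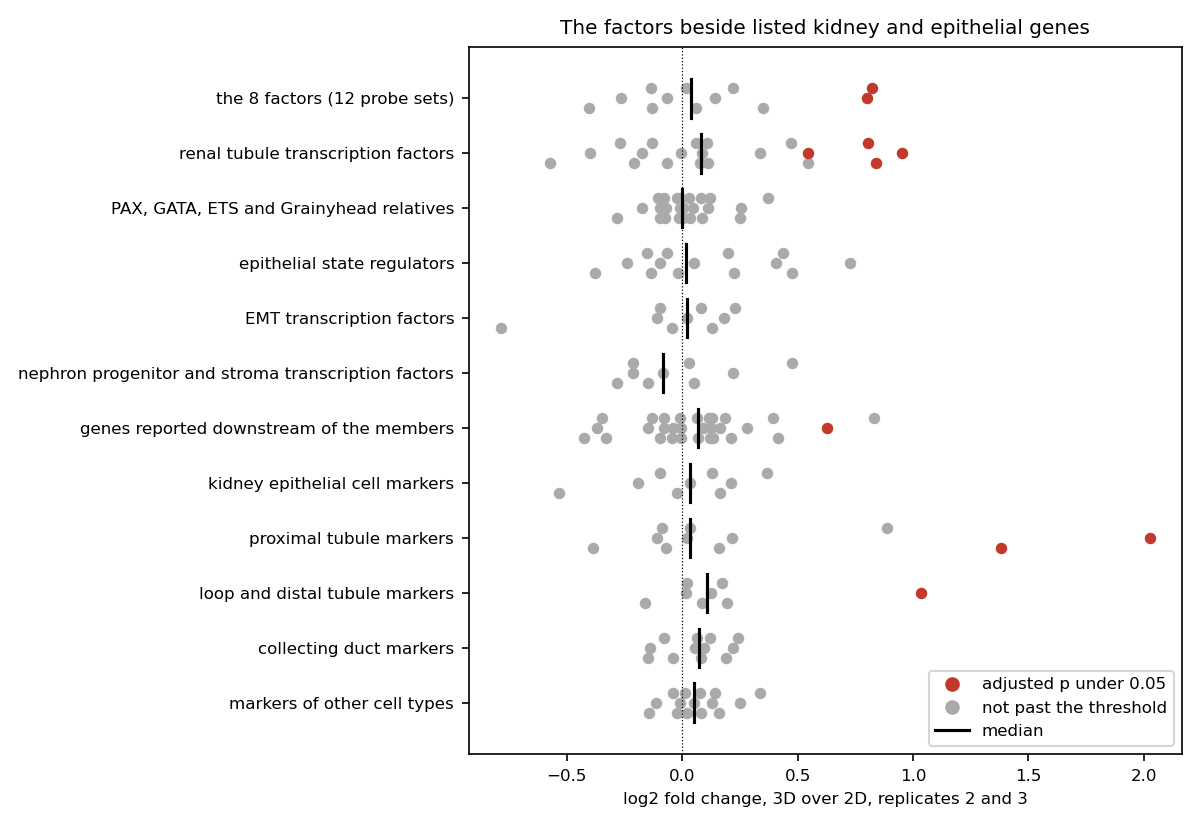
Log2 fold change of 3D over 2D on replicates 2 and 3 (x axis) for the 12 probe sets of the 8 factors and for the genes of the 11 lists, with the median of each row as a black bar and calls in red. The red points all lie above 0, from HOXB7 at 0.545 to GGT1 at 2.025, and the medians lie between -0.085 and 0.105.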

How the data were processed

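Per the labels' protocols, Trizol-extracted RNA (4 µg) was turned into cRNA carrying biotin. The authors deposited log2 values, 1 for each probe set on each array. RMA and limma are the tools listed by the submitters' processing notes. No version, genome build or account of the replicate 1 columns is given in the sources used here. Of 43035 probe sets, 111 controls were left out. The platform annotation gave 1 symbol for 29254 probe sets, several for 439 (not used) and none for 13231. All 8 Entrez identifiers matched the gene table of assembly UU_Cfam_GSD_1.0.

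Differences were fitted in R 4.3.3 by limma 3.58.1 (lmFit, then eBayes) on replicates 2 and 3, two-sided, with Benjamini-Hochberg adjustment over 42924 probe sets and a threshold of 0.05, without a filter on level. The procedure was tested on simulated data with independent errors, which says nothing of a batch or of RNA quality on the real arrays. Python 3.11.15, pandas 2.3.3, numpy 2.4.6 and matplotlib 3.10.9 made tables and plots. The number of arrays limits the precision.

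The factors, the lists and the choice of arrays were made with earlier results of these data known. Every probe set of the factors is named, with at most 4 called members per list of smallest adjusted p, the 3 genes nearest each called probe set (no LOC symbols), and list members that did not pass picked after their values were seen. The labels do not say that replicate numbers mark a shared batch. Deviations from the group means of same-numbered arrays correlated at 0.545, 0.497 and 0.531 over all 6 arrays, where the scales differ, and at 0.00127 on replicates 2 and 3 alone.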

Additional observations from a re-analysis of the deposited data

How the results depend on the processing

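The 2 EHF probe sets stayed the called ones with median centring, cyclic loess, trend and robust priors, and without dim probe sets (2713, 3191, 2433 and 2986 calls over the array, against 2837). With the probe sets of a gene averaged, 1 of the 8 factors passed, EHF, and 1153 genes in all, 565 higher and 588 lower in 3D. On the lists that setting called 10 genes, 9 higher and 1 lower; the lower one was TFCP2, a relative of TFCP2L1 (-0.48, limma adjusted p = 0.0380).

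With the replicate block 0 member probe sets, 0 genes of the lists and 0 of all probe sets passed (8325 at an unadjusted limma p under 0.05). The block takes up part of the 2 residual degrees of freedom. Deviations of same-numbered arrays correlated at 0.00127 on replicates 2 and 3, and the part of a shared batch in the calls was not tested. The fits of all 6 arrays gave 0 calls among the factors and 0 on the lists, and over the array 0 without a block, 0 with the replicate block and 2 after quantile normalization (105, 2723 and 1775 at an unadjusted limma p under 0.05). Leaving out any 1 of the 4 arrays gave 0 calls for the factors, the lists and the array, with 4683 to 10892 at an unadjusted limma p under 0.05. Where 1 array is left out, a group of 1 array is assumed to vary like the other.

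Signs turned for PAX2 (0.36 in the fits of all 6 arrays with and without the block, 0.30 quantile normalized), GATA3 (-0.43 and -0.40), the second GRHL2 probe set (0.68 and 0.53) and the third GRHL2 probe set (-0.32 and -0.14). With 1 array left out, values ran from -0.12 to 0.15 for GATA3, from -0.245 to 0.525 for the third GRHL2 probe set and from -0.05 to 0.17 for the first TFCP2L1 probe set. The cause was not tested. None of these estimates was past the threshold under any setting. EHF, ELF3, ELF5, PAX8, the first GRHL2 probe set and the second TFCP2L1 probe set kept their sign under every alternative that gave a value; ELF5 and the last had none without dim probe sets. After quantile normalization 8 of the 12 replicate 1 differences shared the sign of the other arrays, against 7 as deposited.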

Other observations

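EHF and ELF5 are neighbours in the table of canine genes (UU_Cfam_GSD_1.0), and the named protein-coding genes around them were looked up after the EHF result was seen. CAT, which encodes catalase and lies beside ELF5, rose in 3D, at 12.73 and 12.73 in 3D, against 12.04 and 12.02 in 2D (log2 fold change 0.70, SE 0.0965, limma adjusted p = 0.0175, replicate 1 difference 0.30). ELF5, between EHF and CAT, did not pass and was below the arrays' lower quartiles. APIP, on the other side of EHF, had 11.50 and 11.68 in 3D, against 11.27 and 11.27 in 2D, and did not pass (0.32, limma adjusted p = 0.148). None of the probe sets of the other neighbours CD44, PDHX, ABTB2 and NAT10 passed. ABTB2 and the dimmer PDHX probe set were also below the arrays' lower quartiles. Of all genes 4.17% were called higher and 3.12% lower, and a change shared by these neighbours was not tested.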
